A study of Rattus norvegicus with 4 samples.

Results

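Imprinted genes were followed locus by locus in rat embryoid bodies, clumps of embryonic stem cells that begin to form early lineages. A list of 36 genes from 15 imprinted loci was matched to the gene symbols of the expression tables, and 30 of them were found, on 31 of 32753 gene rows, because Gnas has 2 rows. H19, Dio3, Meg3, Rian, Peg10 and Kcnq1ot1 matched no row and were not analysed here. Both groups were made from DASD rat embryonic stem cells and were collected on day 4. The mutant group was Kcnh2-/- (2 libraries), homozygous for a disrupted gene for the potassium channel ERG1, and it was compared with wild type (WT, 2 libraries). Which stretch of Kcnh2 was altered is not stated in the labels. Cells of both genotypes were aggregated in 20 µl hanging drops for 2 days in a medium called CM. It held 0.75 µM CHIR9902, 0.1 µM of PD0325901, which blocks MEK, and 10 µM of Y27632, which blocks ROCK. They then spent 24 hours on laminin with CHIR9902 and PD0325901 and 1 day in a medium called DM. Expression was measured by RNA-seq of total RNA after removal of ribosomal RNA, and values are RPKM, reads scaled by gene length and library size. The labels do not say whether replicates were separate cultures or clones, so p-values measure the spread between these samples only.

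Genomic imprinting silences one parental copy of a gene. For many of these genes the silent copy is set by DNA methylation, laid down in the egg or sperm at an imprinting control region. It is then kept through development, and one such region often governs a cluster of genes. Many paternally expressed genes promote fetal growth and many maternally expressed genes restrain it, and imprints can be lost when embryonic stem cells are cultured. Which parental copy is active is given here from the mouse. RPKM values add up both copies, so the data give the output of a gene and not the parent it came from.

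The 4 libraries differed in more than genotype. Kcnh2 had 0.108 and 0.504 RPKM in Kcnh2-/- libraries, against 2.61 and 1.45 RPKM in WT libraries. Eif2s3y, a Y-linked gene, had 0.0574 and 0.140 RPKM in Kcnh2-/- libraries, against 153 and 135 RPKM in WT libraries, and 359 X-linked protein-coding genes had a median difference of 0.60 (log2, Kcnh2-/- minus WT), against -0.02 for 10487 autosomal ones. Sex chromosome content and genotype therefore cannot be told apart. Every imprinted gene found lies on an autosome, and this limit holds for them as well. RPKM sums also split by replicate number, at 109388819 and 8933410 in Kcnh2-/- replicates 1 and 2 and 79532545 and 11703158 in WT replicates 1 and 2. Protein-coding genes made up 0.538% and 9.691% of the sums in Kcnh2-/- replicates 1 and 2, and 1.28% and 6.085% in WT replicates 1 and 2. Most of each sum thus lay in other rows, and its split need not hold for protein-coding genes. Genes above 0 numbered 17717 and 17809 in Kcnh2-/- libraries and 17610 and 17833 in WT libraries. Read depth is unknown, and the labels name no batch. Differences within replicate 1 and within replicate 2 are therefore given beside pooled ones for the tested rows.

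At the level of the whole set, no imprinted gene was called between genotypes. Differences on the log2(RPKM + 1) scale were tested with limma. Genes had to reach 1 RPKM in 2 or more libraries, which left 12355, with Benjamini-Hochberg adjustment over all of them and a threshold of 0.05. Of the 31 imprinted rows, 23 were tested and 0 passed. Over all genes, 14 (0.113%) passed, 4 higher in Kcnh2-/- (0.0324%) and 10 lower (0.0809%). With median-of-ratios scaling these became 1 higher and 10 lower, and with quantile normalization 8 higher and 11 lower. Without rescaling, the 4 higher genes include Mir299b, a microRNA row that passed the filter only through the Kcnh2-/- libraries. Kcnh2 itself did not pass (limma adjusted p = 0.980). At an unadjusted p under 0.05, limma gave 4 of the 23 imprinted rows (17.4%), against 3.38% of all genes. These were Snurf and Snrpn, higher in Kcnh2-/- (a direction that held 2.07% of all genes), and Nnat and Zdbf2, lower in Kcnh2-/- (1.31% of all genes). Snurf and Snrpn share a locus and are not independent. The list was also chosen with earlier results of these data known, and whether the shares differ was not tested. With 2 libraries against 2, an exact permutation test cannot go below p = 0.333.

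Imprinted genes spanned a wide range of levels, as the plot of all 31 rows shows. Mest was the highest, at 279 and 374 RPKM in Kcnh2-/- libraries and 313 and 303 RPKM in WT libraries, while Ins2 was at 0 in 3 of the 4 libraries. In 6 of the 23 tested rows (26.1%) the libraries of one genotype all lay on one side of the other, against 32% of all genes. Snurf, Snrpn and Rtl1 were the 3 (13%) that were higher in Kcnh2-/-, against 16.7% of all genes. Nnat, Slc38a4 and Zdbf2 were the 3 (13%) that were lower, against 15.3% of all genes. All 6 belong to the 14 tested rows that are paternally expressed in the mouse (42.9% of them), and 0 of the 9 tested maternally expressed rows were separated. Among rows too low to be tested, the maternally expressed Zim1 and Slc22a18 and the paternally expressed Plagl1 were separated too. Snurf and Snrpn share a locus but are counted as separate rows, and both Gnas rows are counted as maternally expressed. Ube3a is counted so too, although it is maternally expressed in neurons. Whether each gene is imprinted in these cells was not measured. Whether these shares differ was not tested.

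**Figure D1:**
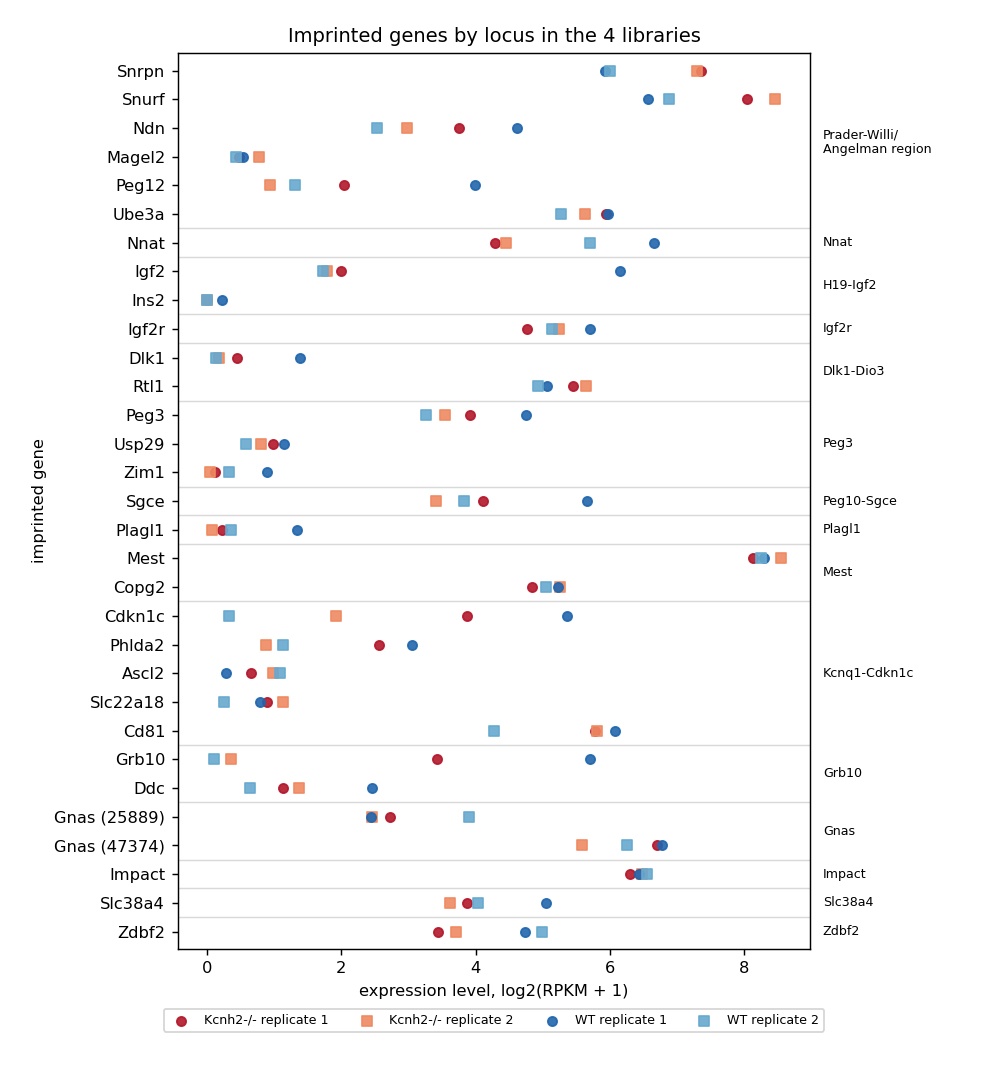
Expression of the 31 imprinted gene rows as log2(RPKM + 1), 1 row per gene, grouped by locus as named at the right, with circles for replicate 1, squares for replicate 2, red shades for Kcnh2-/- and blue shades for WT. Snrpn and Snurf have both Kcnh2-/- points to the right of both WT points, Nnat and Zdbf2 have both to the left, and WT replicate 1 stands far to the right for Igf2, Grb10 and Cdkn1c.

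In the Prader-Willi/Angelman region, the paternally expressed Snurf and Snrpn gave the clearest separation of the genotypes, while their neighbours did not separate. Snrpn, which encodes the spliceosomal protein SmN, lies at chromosome 1, 195074329 to 195096694 in the rn6 build. It had 162 and 156 RPKM in Kcnh2-/- libraries, against 60.01 and 62.7 RPKM in WT libraries. Replicates agreed closely in both genotypes, and the lower Kcnh2-/- library was above the higher WT library by a wide margin. The means were 159 ± 4.60 RPKM in Kcnh2-/- and 61.4 ± 1.92 RPKM in WT (SD, n = 2 each), a ratio of 2.59. On the log2(RPKM + 1) scale the difference was 1.36 ± 0.23 (SE; limma adjusted p = 0.837), with 1.42 within replicate 1 and 1.30 within replicate 2.

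Snurf, the upstream reading frame carried by the same transcript, has the same locus in the files. It had 261 and 348 RPKM in Kcnh2-/- libraries, against 93.7 and 117 RPKM in WT libraries. Both Kcnh2-/- libraries were again above both WT libraries, with means of 305 ± 61.6 and 105 ± 16.4 RPKM (SD, n = 2 each). The difference was 1.52 ± 0.30 (SE; limma adjusted p = 0.980), with 1.47 within replicate 1 and 1.57 within replicate 2. How reads were divided between Snurf and Snrpn is not shown in the files, so the pair is not independent evidence.

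The start of Snurf and Snrpn is shown because in the mouse the imprinting control region of this cluster lies there. Windows are from RefSeq (GRCr8), 250 bases before the start to 50 after it, written 5′ to 3′ in the direction of the gene. Capitals mark TGCCGC or its reverse complement GCGGCA, the hexamer that ZFP57, a protein that keeps imprints in the mouse, binds when it is methylated.
Snurf (chr1:120339104-120339403, minus strand): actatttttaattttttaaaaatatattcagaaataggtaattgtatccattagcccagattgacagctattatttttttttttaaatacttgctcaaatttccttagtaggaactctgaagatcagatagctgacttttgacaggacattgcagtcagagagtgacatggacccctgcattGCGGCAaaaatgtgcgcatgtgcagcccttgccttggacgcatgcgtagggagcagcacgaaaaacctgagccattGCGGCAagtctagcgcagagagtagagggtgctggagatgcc
Snrpn (chr1:120338870-120339169, minus strand): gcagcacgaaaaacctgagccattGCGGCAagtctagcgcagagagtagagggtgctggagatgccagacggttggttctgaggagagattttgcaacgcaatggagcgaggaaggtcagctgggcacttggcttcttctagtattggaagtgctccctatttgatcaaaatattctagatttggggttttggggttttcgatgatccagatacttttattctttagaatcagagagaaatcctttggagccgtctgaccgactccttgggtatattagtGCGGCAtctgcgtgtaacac
The pair of windows shares 66 bases, with 1 of the matches inside the shared stretch. Each window holds 2 matches. Among 33469 windows of 300 bases in the rat table, 11.7% hold the hexamer on either strand and 1.57% hold it at least 2 times. RefSeq windows were found for 29 of the 36 listed symbols, 34 windows in all, of which 12 (35.3%) hold the hexamer. The windows of Sgce and Peg10 overlap as well, and the hexamer itself holds a CpG. Whether the shares differ was not tested. Snurf, Snrpn and Zim1 were the 3 with at least 2 matches. CpG dinucleotides had a median of 18 per imprinted window and 7 per window over the table, with 7 in that of Snurf and 11 in that of Snrpn. These matches are letters in a window and not measured binding or methylation.

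The other genes of the region did not separate the genotypes. Ndn, which encodes the growth suppressor necdin, had 12.6 and 6.92 RPKM in Kcnh2-/- libraries, against 23.6 and 4.82 RPKM in WT libraries. Peg12 (Frat3, of a family of GSK3-binding proteins) had 3.11 and 0.931 RPKM in Kcnh2-/- libraries, against 15.0 and 1.48 RPKM in WT libraries. The ranges of the genotypes overlapped in both genes, with differences of -0.21 ± 0.78 for Ndn and -1.16 ± 1.01 for Peg12 (SE). Within replicates 1 and 2 the difference of Ndn was -0.86 and 0.44, so its direction depended on the replicate number, while that of Peg12 was -1.96 and -0.36. Magel2, whose protein is a partner of ubiquitin ligases, stayed under 1 RPKM in every library and was not tested. Ube3a, the ubiquitin ligase gene that is maternally expressed in neurons, had 60.6 and 48.5 RPKM in Kcnh2-/- libraries, against 61.7 and 37.8 RPKM in WT libraries. Its difference was 0.16 ± 0.34 (SE), with -0.02 within replicate 1 and 0.35 within replicate 2. Mkrn3, another paternally expressed gene of the region, had 9.61 and 10.3 RPKM in Kcnh2-/- libraries, against 12.2 and 7.63 RPKM in WT libraries. Ube3a and Mkrn3 overlapped between genotypes as well. In rn6 Snurf and Snrpn are placed 72.1 Mb from Ndn, whereas RefSeq (GRCr8) orders them between Ube3a and Ndn.

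Zdbf2, a paternally expressed zinc finger gene on chromosome 9 (70059682 to 70089778, rn6), was lower in Kcnh2-/- by the same amount in both replicates. It had 9.87 and 12.0 RPKM in Kcnh2-/- libraries, against 25.6 and 30.8 RPKM in WT libraries. The groups did not overlap, with means of 10.9 ± 1.52 RPKM in Kcnh2-/- and 28.2 ± 3.68 RPKM in WT (SD, n = 2 each), a ratio of 0.388. The difference was -1.29 ± 0.28 (SE; limma adjusted p = 0.980), and -1.29 within each replicate number. Its RefSeq window is shown in contrast to the pair above, since it holds no TGCCGC match and is rich in CpG.
Zdbf2 (chr9:72203348-72203647, plus strand): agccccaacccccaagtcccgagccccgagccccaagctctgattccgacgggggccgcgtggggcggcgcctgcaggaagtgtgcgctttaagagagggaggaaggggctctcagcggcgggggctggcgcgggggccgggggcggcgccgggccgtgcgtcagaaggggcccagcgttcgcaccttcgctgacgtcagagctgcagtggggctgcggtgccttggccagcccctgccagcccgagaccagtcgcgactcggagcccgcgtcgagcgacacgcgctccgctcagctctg
It has 35 CpG dinucleotides, a number that 6.13% of windows in the table reach. In bulk samples such as these, fewer cells that express a gene and less RNA per cell cannot be told apart.

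Nnat, the only member listed for its locus, lies beside Blcap on chromosome 3 (154043872 to 154046330, rn6). It encodes the membrane proteolipid neuronatin and is paternally expressed. It had 18.6 and 20.9 RPKM in Kcnh2-/- libraries, against 99.6 and 51.3 RPKM in WT libraries. Both Kcnh2-/- libraries were low and close together, and the WT libraries were higher but differed from each other. The means were 19.7 ± 1.66 RPKM in Kcnh2-/- and 75.4 ± 34.2 RPKM in WT (SD, n = 2 each), a ratio of 0.262. The difference was -1.81 ± 0.39 (SE; limma adjusted p = 0.980), with -2.36 within replicate 1 and -1.25 within replicate 2. Blcap, placed at 154040165 to 154042099 in rn6, had 5.20 and 4.88 RPKM in Kcnh2-/- libraries, against 7.50 and 7.55 RPKM in WT libraries. It too was separated, with a smaller difference of -0.50.

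Slc38a4 is an amino acid transporter gene on chromosome 7 (138459503 to 138512952, rn6) that is paternally expressed in the mouse. Among tested rows, it was the remaining gene that was lower in Kcnh2-/- without overlap. It had 13.7 and 11.3 RPKM in Kcnh2-/- libraries, against 32.2 and 15.5 RPKM in WT libraries. WT replicate 2 was only slightly above the Kcnh2-/- libraries, and the difference was -0.80 ± 0.43 (SE; limma adjusted p = 0.980), with -1.18 within replicate 1 and -0.42 within replicate 2.

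**Figure D2:**
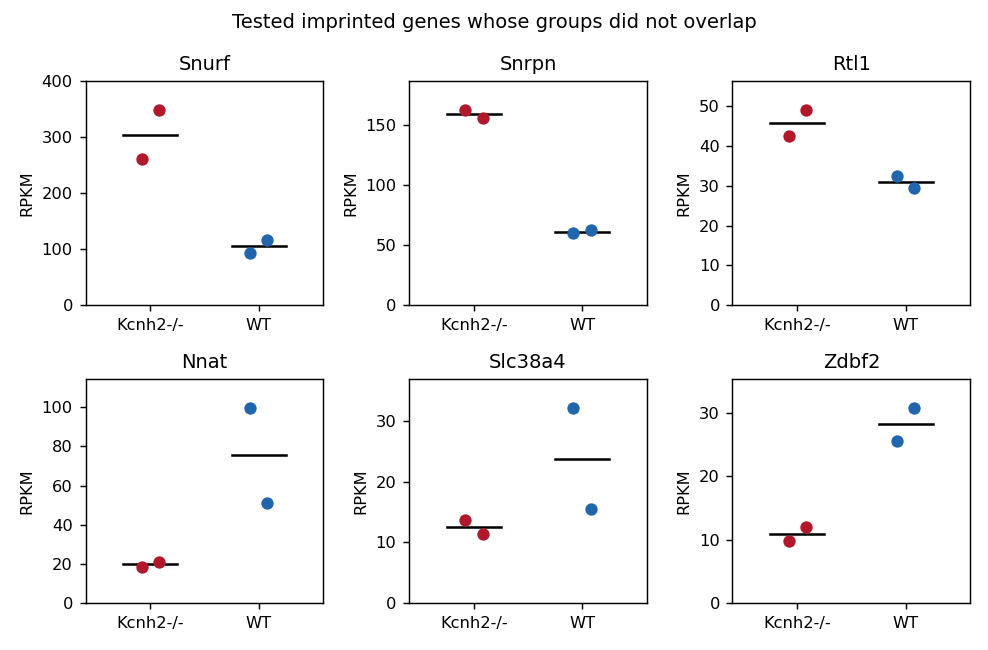
RPKM of the 6 tested imprinted genes whose genotypes did not overlap, 1 panel per gene with its own axis from 0, with points for the 2 Kcnh2-/- libraries at the left and the 2 WT libraries at the right, and a line for each mean. Snrpn and Snurf have ratios of 2.59 and 2.89, while Nnat and Zdbf2 lie at 0.262 and 0.388 of WT.

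The Dlk1-Dio3 locus holds paternally expressed protein-coding genes and, on the maternal copy, long non-coding RNAs that carry a large microRNA cluster. Rtl1, a retrotransposon-derived gene needed in the mouse placenta, lies at chromosome 6, 133711153 to 133716847 (rn6). It had 42.5 and 48.96 RPKM in Kcnh2-/- libraries, against 32.5 and 29.5 RPKM in WT libraries. All Kcnh2-/- values were above all WT values, with means of 45.7 ± 4.55 and 31.0 ± 2.06 RPKM (SD, n = 2 each). The difference was 0.54 ± 0.24 (SE; limma adjusted p = 0.980), with 0.38 within replicate 1 and 0.71 within replicate 2. Dlk1, which encodes a Notch-like membrane protein, was barely detected, at 0.372 and 0.142 RPKM in Kcnh2-/- libraries and 1.61 and 0.100 RPKM in WT libraries. A gene known only by the clone name AABR07065531.26 lies between Dlk1 and Rtl1, 34.2 kb from Rtl1, and was chosen for mention after its values were seen. It had 96.5 and 101 RPKM in Kcnh2-/- libraries, against 86.3 and 60.2 RPKM in WT libraries. Another clone gene of the locus, AABR07065559.1, had 19.3 and 46.6 RPKM in Kcnh2-/- libraries, against 26.8 and 15.1 RPKM in WT libraries, and overlapped between genotypes.

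MicroRNA precursors of this locus were seen in Kcnh2-/- libraries only. The pattern was noticed after the values were seen. Of 51 precursor rows in the locus, 43 were at 0 in all 4 libraries and 8 were above 0, each in 1 or both Kcnh2-/- libraries and listed at 0 in both WT libraries. In the rest of the genome, 381 of 387 microRNA rows were at 0 in all libraries. Of the other 6, 2 were above 0 in Kcnh2-/- only, 3 in WT only and 1 in both genotypes. Of the 20201 genes above 0 in any library, 5.87% were above 0 in 1 or both Kcnh2-/- libraries and at 0 in both WT libraries, and 5.71% showed the reverse. In the stricter form, above 0 in both Kcnh2-/- libraries, there were 3 locus rows, and over all genes 0.98%, with 1.08% in the reverse direction.

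The mature sequences annotated to the detected precursors are shown so that each row can be placed in the cluster. They are from RefSeq (GRCr8), matched for 7 of the 8 rows, with the seed (bases 2 to 8) in capitals.
rno-miR-431 (chr6:134326468-134326488, plus strand): uGUCUUGCaggccgucaugca
rno-miR-299b-3p (chr6:134545077-134545093, minus strand): uAUGUGGGacgguaaac
rno-miR-299b-5p (chr6:134545106-134545125, minus strand): cGGUUUACcgucccacauac
rno-miR-3579 (chr6:134546246-134546267, minus strand): gCGCAUGUucuauggucaacca
rno-miR-1193-5p (chr6:134550474-134550493, plus strand): aUGGUAAAccggugacgugc
rno-miR-1193-3p (chr6:134550509-134550530, plus strand): uAGGUCACccguuuuacuaucc
rno-miR-3592 (chr6:134569992-134570012, minus strand): aAGUGUUGuccgugaaugauu
rno-miR-134-5p (chr6:134570320-134570341, plus strand): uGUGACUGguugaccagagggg
rno-miR-134-3p (chr6:134570359-134570380, plus strand): cUGUGGGCcaccuagucaccaa
rno-miR-377-5p (chr6:134576463-134576484, plus strand): aGAGGUUGcccuuggugaauuc
rno-miR-377-3p (chr6:134576498-134576520, plus strand): uGAAUCACacaaaggcaacuuuu
The 11 sequences have 11 distinct seeds, so no seed is shared among them. Outside the set, seeds are shared between miR-299b and miR-299a (both arms), between miR-1193-3p and miR-370-5p, and between miR-377-5p and miR-672-5p. In GRCr8 miR-299b, miR-3579 and miR-3592 come from the minus strand, opposite to the other precursors shown, and their precursors overlap the plus-strand hairpins of Mir299, Mir380 and Mir382. Without knowledge of the strand used in counting, reads of those rows cannot be told from reads of the overlapping hairpins.

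Mir299b had 222517 and 30891 RPKM in Kcnh2-/- libraries and was listed at 0 in both WT libraries. Mir3592 had 521514 and 37157 RPKM in Kcnh2-/- libraries and was listed at 0 in both WT libraries. The row rno-mir-679 had 79807 and 2395 RPKM in Kcnh2-/- libraries and was listed at 0 in both WT libraries. These 3 rows passed the filter on low values only through the Kcnh2-/- libraries. Mir299b is among the 14 genes called over the table, but no p-value is given for the 3 rows. In each of them replicate 1 was far above replicate 2. The other 5 rows were above 0 in 1 Kcnh2-/- library each. Mir134 and Mir377 were seen in replicate 1, and Mir431, Mir3579 and Mir1193 in replicate 2. These values are no measure of mature microRNA, because the libraries were not made for small RNA. The rows other than Mir431 span 103 to 137 bp, and a fragment adds far more RPKM to such a row than to a long gene. Mir431 is listed with the 5694 bp locus of Rtl1, and its reads may not be separable from those of Rtl1. For all 8 rows, the number of fragments behind the values is unknown. An exact 0 can also be a failed estimate, and the sources used here do not state whether counting used the strand.

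**Figure D3:**
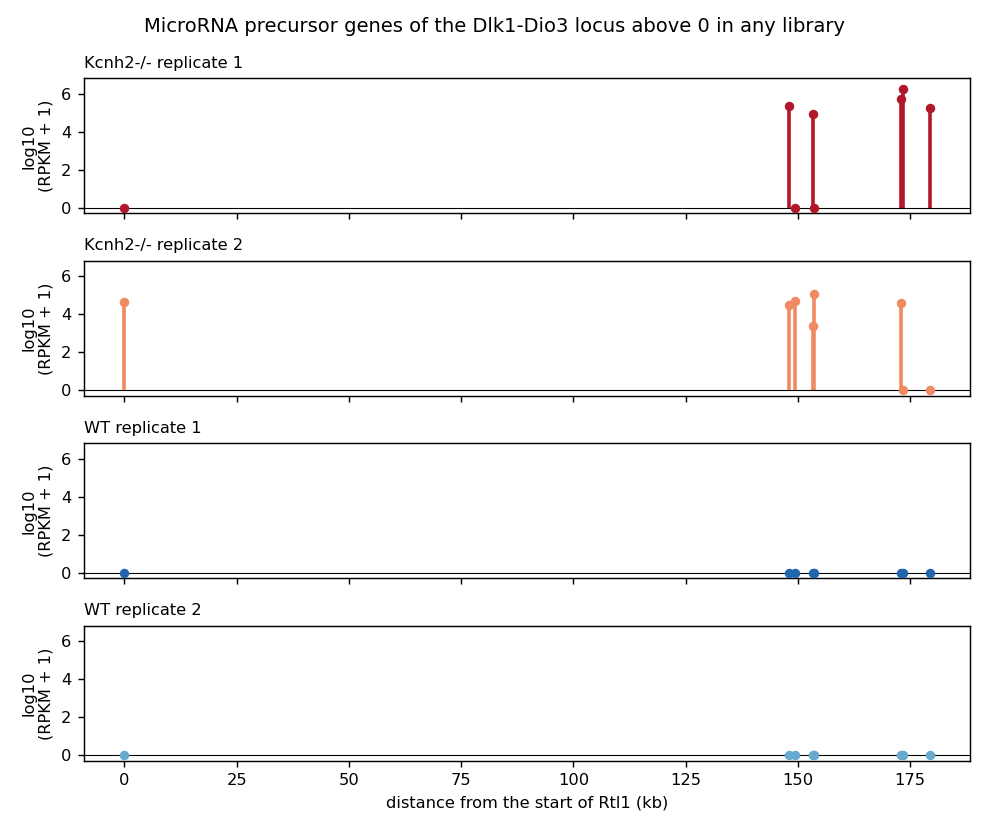
Level of the 8 microRNA precursor rows of the Dlk1-Dio3 locus that were above 0 in any library, as log10(RPKM + 1), against distance from the start of Rtl1 in kb, with 1 panel per library and Kcnh2-/- above WT. All points of both WT panels lie at 0, and 3 of the precursors are above 0 in both Kcnh2-/- panels.

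At the growth-regulating loci, the largest gaps were between the WT libraries and not between genotypes. Igf2, the paternally expressed fetal growth factor gene, had 2.98 and 2.46 RPKM in Kcnh2-/- libraries, against 70.2 and 2.31 RPKM in WT libraries. WT replicate 1 alone was high, 30.4-fold above WT replicate 2, and the difference between genotypes was -2.05 pooled, with -4.16 within replicate 1 and 0.06 within replicate 2. The overlapping clone gene AC098563.1, named after its values were seen, had 5.54 and 0.0152 RPKM in Kcnh2-/- libraries, against 71.4 and 0 RPKM in WT libraries. Ins2, the insulin gene beside Igf2, was at 0 in both Kcnh2-/- libraries and at 0.171 and 0 RPKM in WT libraries. Igf2r, whose protein clears IGF2 and which is maternally expressed, had 26.1 and 36.7 RPKM in Kcnh2-/- libraries, against 51.1 and 34.1 RPKM in WT libraries. Its groups overlapped, with a difference of -0.42 ± 0.34 (SE), -0.94 within replicate 1 and 0.10 within replicate 2.

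Grb10, an adaptor that dampens insulin signalling, had 9.71 and 0.291 RPKM in Kcnh2-/- libraries, against 51.3 and 0.0823 RPKM in WT libraries. Replicate 1 was above replicate 2 by 33.4-fold in Kcnh2-/- and 624-fold in WT, so the difference between genotypes had an SE above its size (-1.02 ± 2.13). It was -2.29 within replicate 1 and 0.25 within replicate 2. Ddc, the neighbouring decarboxylase gene of dopamine and serotonin synthesis, had 1.19 and 1.58 RPKM in Kcnh2-/- libraries, against 4.52 and 0.558 RPKM in WT libraries (-0.30 ± 0.70), with differences of -1.33 and 0.73 within replicates 1 and 2.

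Cdkn1c, the maternally expressed inhibitor of cyclin-dependent kinases in the Kcnq1-Cdkn1c cluster, had 13.6 and 2.79 RPKM in Kcnh2-/- libraries, against 40.1 and 0.263 RPKM in WT libraries. The same split was seen, 4.88-fold between Kcnh2-/- libraries and 153-fold between WT libraries, with a difference between genotypes of 0.05 ± 1.81 (SE). This difference was -1.49 within replicate 1 and 1.59 within replicate 2. Phlda2, a maternally expressed gene that limits placental growth, had 4.94 and 0.849 RPKM in Kcnh2-/- libraries, against 7.32 and 1.19 RPKM in WT libraries. Cd81, a tetraspanin gene at the edge of the cluster, had 54.0 and 55.2 RPKM in Kcnh2-/- libraries, against 66.4 and 18.3 RPKM in WT libraries. Neither gene separated the genotypes, and WT replicate 2 was the low library for Cd81. The difference was -0.37 ± 0.91 for Phlda2 (-0.49 and -0.25 within replicates 1 and 2) and 0.63 ± 0.64 for Cd81 (-0.29 and 1.54), each as log2 ± SE. Ascl2, a trophoblast transcription factor gene, and the transporter gene Slc22a18 were between 0.201 and 1.21 RPKM in all libraries and were not tested. Slc22a18 had 0.864 and 1.21 RPKM in Kcnh2-/- libraries, against 0.731 and 0.201 RPKM in WT libraries, above WT without overlap. Tssc4, a gene between them, had 21.4 and 37.1 RPKM in Kcnh2-/- libraries, against 25.9 and 21.0 RPKM in WT libraries.

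Among the remaining loci, Peg3, Sgce and Plagl1 had their highest value in WT replicate 1. Peg3, a paternally expressed zinc finger gene, had 14.0 and 10.7 RPKM in Kcnh2-/- libraries, against 25.9 and 8.64 RPKM in WT libraries (-0.28 ± 0.57, with -0.84 within replicate 1 and 0.28 within replicate 2). Apeg3, antisense to it, had 10.2 and 9.07 RPKM in Kcnh2-/- libraries, against 18.6 and 7.84 RPKM in WT libraries. Both members of this sense and antisense pair were in the same order across the libraries, and their reads may not be fully separable. Usp29 stayed between 0.500 and 1.22 RPKM. Zim1 had 0.0852 and 0.0323 RPKM in Kcnh2-/- libraries, against 0.856 and 0.262 RPKM in WT libraries, below WT without overlap and too low to be tested. Sgce, the gene of a sarcoglycan that is paternally expressed beside Peg10, had 16.4 and 9.62 RPKM in Kcnh2-/- libraries, against 49.5 and 13.2 RPKM in WT libraries (-0.98 ± 0.70, with -1.54 within replicate 1 and -0.42 within replicate 2). Plagl1, a zinc finger regulator of growth, had 0.170 and 0.0560 RPKM in Kcnh2-/- libraries, against 1.54 and 0.289 RPKM in WT libraries. It too was below WT without overlap, and was not tested.

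Mest, Copg2, Gnas and Impact did not separate the genotypes. The differences were 0.07 ± 0.30 for Mest (a hydrolase-like gene of mesoderm), -0.10 ± 0.28 for Copg2 (a coat protein subunit gene) and -0.11 ± 0.24 for Impact (a regulator of translation), each as log2 ± SE. Within replicates 1 and 2 they were -0.17 and 0.30 for Mest, -0.40 and 0.21 for Copg2, and -0.14 and -0.08 for Impact. Copg2 had 27.5 and 37.3 RPKM in Kcnh2-/- libraries, against 36.6 and 32.2 RPKM in WT libraries. Impact had 77.4 and 87.9 RPKM in Kcnh2-/- libraries, against 85.2 and 93.2 RPKM in WT libraries. The small differences of these genes were within the spread between libraries. Gnas, which encodes the stimulatory G protein subunit and several imprinted isoforms, has 2 rows that the files do not assign to isoforms. ENSRNOG00000047374 had 103 and 46.9 RPKM in Kcnh2-/- libraries, against 109 and 75.4 RPKM in WT libraries. ENSRNOG00000025889 had 5.63 and 4.51 RPKM in Kcnh2-/- libraries, against 4.47 and 14.0 RPKM in WT libraries. The difference was -0.37 ± 0.47 for the first (-0.08 and -0.67 within replicates 1 and 2) and -0.58 ± 0.57 for the second (0.28 and -1.45), each as log2 ± SE.

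Set beside all genes tested, a large gap between the WT libraries was more frequent among imprinted rows, which was not tested. WT replicate 1 was above WT replicate 2 by 2 or more on the log2 scale in 5 of 23 rows (21.7%), against 2.56% of all genes. These were Grb10, Cdkn1c, Igf2, Peg12 and Ndn. The median of WT replicate 2 minus WT replicate 1 was -0.95 over imprinted rows and 0.07 over all genes. The genotype difference was below 0 in 16 of 23 rows (69.6%), against 49.6% of all genes. Its median was -0.30 over imprinted rows and 0.01 over all genes, but it was -0.84 within replicate 1 and 0.21 within replicate 2. Without WT replicate 1 the median was 0.18, and without WT replicate 2 it was -1.02. Rows lower in Kcnh2-/- within both replicates numbered 8 (34.8%, against 28.1% of all genes), and rows higher in both numbered 3 (13%, against 30.8%). Paternally expressed rows had a median difference of -0.29 and maternally expressed rows -0.37.

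**Figure D4:**
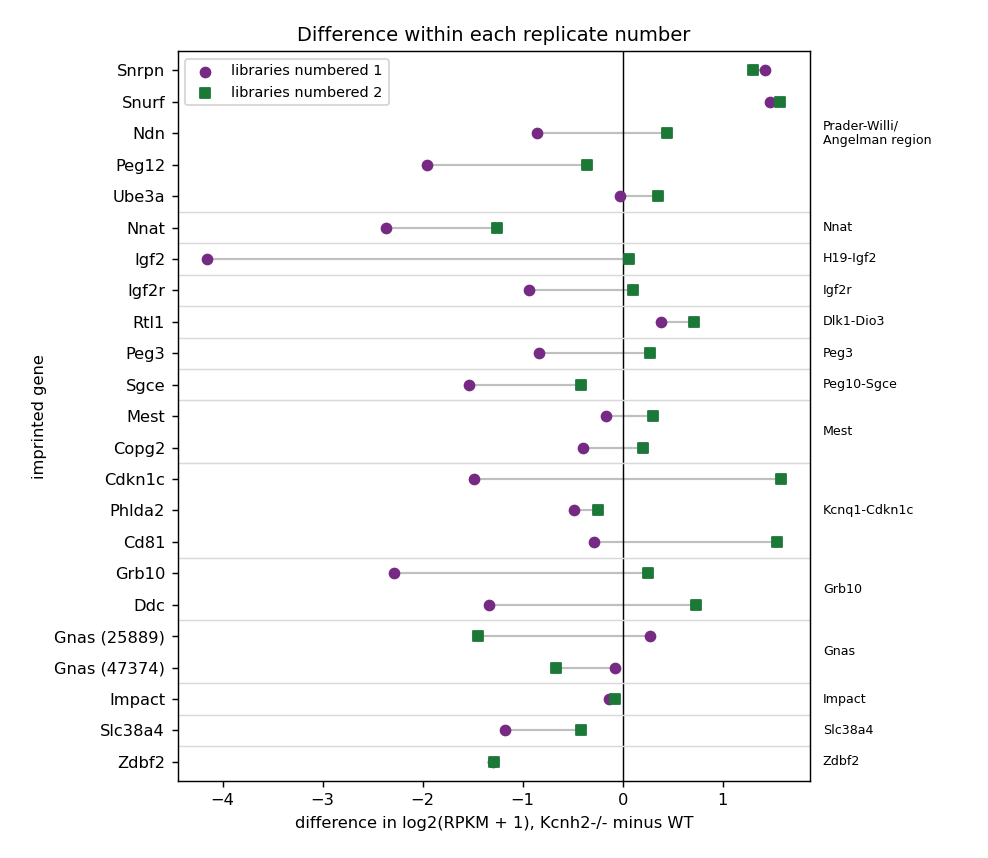
Difference in log2(RPKM + 1), Kcnh2-/- minus WT, for the 23 tested imprinted rows, within replicate 1 (purple circles) and within replicate 2 (green squares), joined by a grey line. Snrpn, Snurf and Rtl1 lie right of 0 in both, 8 rows lie left of 0 in both, and the widest gap is that of Igf2, at -4.16 and 0.06.

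Cell type markers, summed by list, moved with the same libraries. Summed levels of 10 endoderm markers were 113 and 60.9 RPKM in Kcnh2-/- libraries, against 257 and 61.0 RPKM in WT libraries. Sparc made up most of these sums, and the other 9 markers summed to 19.6 and 2.62 RPKM in Kcnh2-/- libraries, against 98.1 and 15.1 RPKM in WT libraries. The 5 tested endoderm rows all had differences below 0, with a median of -1.64 (-1.87 within replicate 1 and -1.21 within replicate 2). Summed levels of 12 pluripotent and epiblast markers were 1529 and 2420 RPKM in Kcnh2-/- libraries, against 564 and 1881 RPKM in WT libraries. Pou5f1 made up a large part of these sums, at 1043 and 1679 RPKM in Kcnh2-/- libraries, against 273 and 1203 RPKM in WT libraries. WT replicate 1, the library with most Igf2, Grb10 and Cdkn1c, thus had the highest endoderm and the lowest pluripotent sum. It also had the highest mesoderm, fibroblast, trophoblast and neural sums, given below, though some trophoblast and neural markers were lowest in it. Among tested pluripotent rows, Sox2 was lowest in Kcnh2-/- replicate 1 and Lin28a in Kcnh2-/- replicate 2, and the others in WT replicate 1. Mesoderm markers summed to 19.5 and 10.8 RPKM in Kcnh2-/- libraries, against 42.4 and 16.3 RPKM in WT libraries. Fibroblast markers, listed for feeder cells, summed to 15.5 and 0.660 RPKM in Kcnh2-/- libraries, against 27.5 and 2.30 RPKM in WT libraries. Trophoblast markers summed to 298 and 281 RPKM in Kcnh2-/- libraries, against 346 and 263 RPKM in WT libraries. Krt18 made up most of these sums, at 314 RPKM in WT replicate 1. Cdx2, Gata3 and Hand1 were also highest in WT replicate 1, but Tfap2c and Elf5 were lowest there, and Krt7 was highest in Kcnh2-/- replicate 1. Neural markers summed to 24.9 and 21.8 RPKM in Kcnh2-/- libraries, against 53.5 and 15.5 RPKM in WT libraries. Tubb3 made up most of the neural sums, at 44.6 RPKM in WT replicate 1. Nes and Pax6 were also highest in that library, but Map2 and Elavl3 were lowest there. Germ cell markers, some of which pluripotent cells share, summed to 255 and 518 RPKM in Kcnh2-/- libraries, against 92.1 and 245 RPKM in WT libraries. Limma called 0 markers of these 7 lists. At an unadjusted p under 0.05 it gave 2 of 36 tested rows (5.56%, against 3.38% of all genes), the germ cell genes Ddx4 and Sycp3, both higher in Kcnh2-/-. Of the 8 germ cell rows, 6 had a difference above 0 and 2, Kit and Prdm1, below 0. Otx2 (pluripotent and epiblast) and Fap (fibroblast) were at 0 in all libraries. The part of cell type in the imprinted values was not tested.

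**Figure D5:**
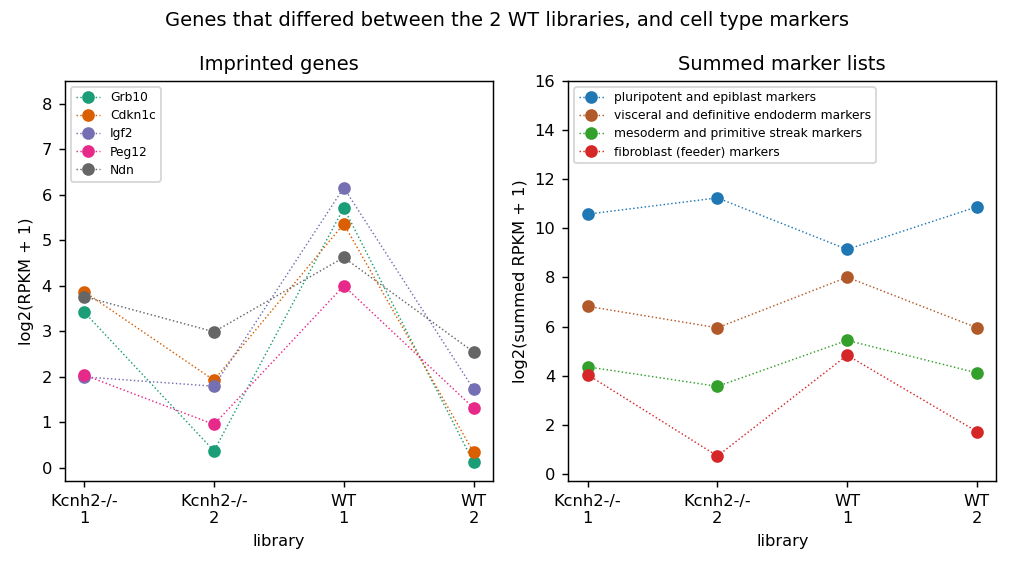
Left, log2(RPKM + 1) of the 5 imprinted genes that differed most between the WT libraries, and right, log2 of summed RPKM + 1 for 4 marker lists, with Kcnh2-/- libraries left of WT libraries and dotted lines joining values of one gene or list. WT replicate 1 has the highest value of all 5 genes and of the endoderm, mesoderm and fibroblast lists, and the lowest of the pluripotent list, at 564 RPKM.

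The machinery that keeps imprints was measured through 22 genes for DNA methylation and imprint maintenance, of which 0 were called by limma among 21 tested rows (0 at an unadjusted p under 0.05). Their median difference was -0.09, against 0.01 over all genes. By smallest p the members were Dnmt3a, Tet3 and Kdm1b. Dnmt3a, a de novo DNA methyltransferase gene, had 240.0 and 156 RPKM in Kcnh2-/- libraries, against 62.7 and 160 RPKM in WT libraries. WT replicate 1 alone was low. Over the tested rows of this list, the median of WT replicate 2 minus WT replicate 1 was 0.64, against 0.07 over all genes. WT replicate 1 was above WT replicate 2 in 5 of the 21 rows. Tet3, which oxidizes methylated cytosine, had 2.82 and 2.91 RPKM in Kcnh2-/- libraries, against 3.67 and 6.66 RPKM in WT libraries. Kdm1b, a histone demethylase gene needed for maternal imprints in mouse oocytes, had 7.47 and 5.82 RPKM in Kcnh2-/- libraries, against 9.71 and 8.80 RPKM in WT libraries. Both genes, and Setdb1 as the third of this list, had lower values in Kcnh2-/- without overlap (14.3% of the tested rows, against 15.3% of all genes). Zfp445 was the 1 tested row with higher values in Kcnh2-/- without overlap (4.76%, against 16.7% of all genes). Zfp57, named for its hexamer above and not by rank, had 7.57 and 25.9 RPKM in Kcnh2-/- libraries, against 9.32 and 24.3 RPKM in WT libraries, and followed the replicate number.

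A further 42 imprinted genes outside the 36 gave 36 in the files and 19 tested rows, of which limma called 0 and 1 had an unadjusted p under 0.05. Of these rows 4 (21.1%) separated the genotypes, 2 in each direction, against 32% of all genes. The gene of smallest p was Nap1l5, a paternally expressed gene, with 16.2 and 9.42 RPKM in Kcnh2-/- libraries, against 5.03 and 1.99 RPKM in WT libraries. Its difference was 1.66 ± 0.50 (SE; limma adjusted p = 0.980). Gab1, a signalling adaptor gene, had 32.3 and 42.7 RPKM in Kcnh2-/- libraries, against 10.0 and 33.3 RPKM in WT libraries. The median difference of this second list was 0.05, close to that of all genes.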

How the data were processed

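The tools named are TopHat2 2.0.13 and Cufflinks 2.2.1, with the rn6 build, per the submitters' processing notes. The gene annotation was not given in the sources used here. RPKM per gene were deposited by the authors, 1 table per library, with symbols and rn6 loci, and their tools divided the reads of overlapping genes. Absolute depth is unknown, and the number of samples limits the precision. Symbols were matched to 36 listed genes. limma 3.58.1 (R 4.3.3, mean-variance trend) was fitted on log2(RPKM + 1), a scale that understates changes of low genes, with no replicate term. It was also run on simulated data with independent noise in each library. That setting lacks the split by replicate number, so it does not give error rates for these data. Tables used pandas 2.3.3 and numpy 2.4.6 under Python 3.11.15, and figures matplotlib 3.10.9. Other genes were named by smallest p in each list (up to 3) or as locus neighbours at 5 RPKM or more, unless the text says otherwise. The Dlk1-Dio3 span was extended to Ppp2r5c after the files were seen, by RefSeq gene order. Members and lists were chosen with earlier results of these data known. Alternatives covered the pseudocount, filter, scaling, variance trend, threshold, replicate block, protein-coding genes alone and each library left out.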

Additional observations from a re-analysis of the deposited data

How the results depend on the processing

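The count of 14 genes called over the table was 1 with no filter on low values, 3 with no mean-variance trend, 3 over protein-coding genes alone, 28 with the replicate block, 82 over protein-coding genes with the replicate block, and 10 to 16 with 1 library left out. The count of 0 imprinted rows called held in every alternative but that of protein-coding genes with the replicate block, which called 3: Snurf (adjusted p = 0.0236), Snrpn (0.0393) and Nnat (0.0439), while Zdbf2 had 0.099. Over all genes with the replicate block these had adjusted p = 0.158, 0.186, 0.240 and 0.273. The labels give only a shared replicate number. Deviations of same-numbered libraries correlated at 0.381 over 12355 genes and 0.582 over 10851 protein-coding genes, from 2 pairs, so no pairing is established and the blocked values are not read as stronger evidence. Outside leaving out a library, 225 of 226 imprinted values kept their sign; the exception was Mest, -0.25 with quantile normalization. Leaving out 1 library turned the sign in 14 of 23 rows, 7 without WT replicate 1, 4 without WT replicate 2, 2 without Kcnh2-/- replicate 1 and 5 without Kcnh2-/- replicate 2. The lowest and highest log2 differences were Cd81 -0.28 to 1.53, Cdkn1c -2.46 to 2.56, Copg2 -0.31 to 0.12, Ddc -1.22 to 0.61, Gnas (ENSRNOG00000025889) -1.31 to 0.14, Gnas (ENSRNOG00000047374) -0.93 to 0.19, Grb10 -3.82 to 1.78, Igf2 -4.26 to 0.16, Mest -0.14 to 0.28, Ndn -1.25 to 0.83, Peg12 -2.50 to 0.18, Peg3 -1.02 to 0.46, Phlda2 -1.33 to 0.60, Ube3a -0.18 to 0.51. The cause was not tested. Snrpn (1.33 to 1.39), Snurf (1.31 to 1.73), Nnat (-2.28 to -1.34), Zdbf2 (-1.42 to -1.16) and Rtl1 (0.45 to 0.64), and also Slc38a4, Sgce, Igf2r and Impact, kept their sign with each library left out. Read depth is unknown, and the precision of rows near or under 1 RPKM could not be computed.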
